A study of Mus musculus with 28 samples.

Results

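Trimethylation of lysine 4 on histone H3 (H3K4me3) is the chromatin mark of active and poised gene starts. It is laid down by COMPASS-type methyltransferases such as Kmt2a and Setd1b, and most of it sits on CpG-rich promoters. A smaller share lies away from annotated promoters: at starts that a gene catalogue lacks, at transfer RNA (tRNA) genes, inside the bodies of strongly marked cell identity genes, and at strong enhancers. In hair follicle stem cells, the quiescent bulge cells that regrow hair, such identity genes include Nfib, Nfatc1, Vdr, Trp63 and Tcf7l2.

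The H3K4me3 peaks outside promoters were taken as every row of the H3K4me3 table on autosomes 1 to 19 whose annotation did not begin with Promoter, a label that in this table covered 3 kb on either side of an annotated start. This gave 5162 of 21390 peaks. The cells were hair follicle stem cells from mice of the strain labelled 132-C67BL/6J, aged 24 months (old) or 6 months (young), sorted from trypsin-released epidermis as CD34-positive, α6-integrin-positive cells. No other treatment or allele is given in the labels for either age. There were 2 old and 2 young libraries of H3K4me3 ChIP-seq and as many of Pol2 (RNA polymerase II) ChIP-seq, 3 and 3 of H3K27me3 ChIP-seq, 4 and 4 of ATAC-seq, and 3 and 3 of RNA-seq, or 28 libraries in all.

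The 3 ChIP-seq tables hold 1 value per age for each peak, so no spread between libraries could be computed for them. A level is the authors' group mean on the log2 scale, which adds up reads over a whole peak and so grows with its width. Fold changes are log2 old over young, and a peak was called lower or higher where the authors' false discovery rate (FDR) was under 0.05. Listed ATAC-seq counts summed to between 1572998 and 1946804 in old libraries and between 2456110 and 2773284 in young libraries. The sorted identity was read from promoter H3K4me3: all 34 genes of the follicle stem cell list had a peak within 1 kb of their start, with young levels from 9.56 to 16.38, against 2 of 17 immune markers (7.67 to 9.80), 2 of 9 melanocyte markers (7.58 to 11.25), 5 of 11 fibroblast markers (8.29 to 10.73), 4 of 11 endothelial, muscle and glial markers (6.35 to 11.12) and 7 of 13 interfollicular and sebaceous markers (8.81 to 11.55). Cd3e, Cd4, Ptprc, Pecam1, Tyr, Pmel, Dcn and Col3a1 had no such peak. Junb, Zfp36, Kdm5a and Setd1b, from other lists used below, had none under their names either, so a missing peak is weak evidence. The lists were made with earlier results of these data known, so this comparison is not independent support for the identity.

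Of the 5162 peaks, 254 held 1 or more RefSeq transcript starts that the table's own annotation did not place there, 313 starts in all, of 268 gene symbols. They are shown first because they were more strongly marked than the rest: these 254 peaks had a median level of 8.07 in old and 9.44 in young cells and a median width of 2350 bp, against 6.01 in old and 7.1 in young cells and 768.5 bp for the 4908 without a start. The 30 bases around 10 such starts follow, 15 before the start and 15 from it on, 5′ to 3′ on the gene's strand, from RefSeq on GRCm38.p6. They belong to the 10 protein-coding genes, apart from those with provisional Gm names, whose peaks had the highest levels, and CpG dinucleotides, the substrate that CXXC-domain methyltransferase complexes bind when unmethylated, are in capitals.
Ahnak2: gatctggtgggaggtagcCGgcccaggatc
Maml2: ccaccctctggagacctctattcatgtgcc
Creb5: tctaaatagaatgtattgtaatctttgctc
Clasp2: ctgaCGtCGcCGgcagcCGcagcctctgaa
Arhgef3: ggagcttaggCGtcaggtccactctgcaag
Pcgf5: gCGCGctCGcccCGCGcccatCGcCGtCGc
Trak1: tCGggCGgtgaCGgcagCGCGaggggaggc
Sipa1l2: ggagCGCGtgggggCGgtgcCGgggCGggc
Ppp2r5c: ctggggaggcCGctcaggctctgaggtggc
Bcar1: CGggCGgagCGaagtggacCGgctgCGggc

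Pcgf5, Trak1, Sipa1l2 and Bcar1 carried 5 to 8 CpGs within these 30 bases, and Maml2 and Creb5 carried none. Over the whole 300-base windows, 250 before and 50 from the start, the order was different: Creb5 held 31 CpGs and Clasp2 37, against 2 in Maml2. The 313 windows had a median GC content of 53.3% and a median of 9 CpGs. The 13221 starts under promoter H3K4me3 peaks had 62.0% and 22 CpGs, and the 17862 autosomal starts under no H3K4me3 peak had 47.7% and 3. The windows at these 313 starts therefore lay between the 2 other groups, with protein-coding starts (114, median 13 CpGs) above lncRNA starts (199, median 8).

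Fixed motifs were counted in the same windows on both strands. The GC box GGGCGG, bound by Sp1-type factors, was present at 37.4% of the 313 starts, against 36.0% of all 31396 autosomal starts. Those under promoter peaks had it at 67.1% and those under no peak at 12.9%. The CCAAT box, bound by NF-Y, was present at 38.7%, against 37.3% of all. The AP-1 motif TGANTCA was present at 4.79%, against 7.84% of all, 4.52% under promoter peaks and 10.4% under no peak. For the TATA box TATAAA the share was 8.95%, against 13.6% of all, 6.04% under promoter peaks and 19.3% under no peak. Both shares thus lay nearer to those of starts under promoter peaks. The TEAD motif GGAATG was present at 60 starts (19.2%), against 14.6% of all, 11.5% under promoter peaks and 16.8% under no peak. The cAMP response element TGACGTCA, bound by Creb and Atf proteins, was present at 7 starts (2.24%). All starts had it at 1.83%, those under promoter peaks at 3.23% and those under no peak at 0.784%. It was found at the start of Creb5, itself a factor of that family, and of Clasp2, a microtubule plus-end protein, and is in capitals in the 30 bases shown for each.
Creb5, first motif base 45 bases before the start: ggaatcccacgTGACGTCAccgggggggtg
Clasp2, first motif base 31 bases before the start: gcgcgtcgctcTGACGTCAcgcgcgcgctg

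The Creb5 window lies at chr6:53287247-53287276 and the Clasp2 window at chr9:113741431-113741460, both on the plus strand. The Creb5 peak (chr6:53285743-53291487, annotated distal intergenic) had a level of 10.49 in old and 12.24 in young cells, a log2 fold change of -1.76 in the authors' deposited table (FDR 1.1e-07). The Clasp2 peak (chr9:113738626-113744508) had 10.68 in old and 11.99 in young cells, a change of -1.30 in that authors' deposited table (FDR 4.53e-06). Pcgf5, a subunit of a variant Polycomb complex, had 10.33 in old and 11.82 in young cells, -1.49 in the authors' deposited table (FDR 1.46e-06), and Bcar1, a focal adhesion adaptor, 9.81 in old and 11.40 in young cells. Tet1, which oxidises 5-methylcytosine, had 9.58 in old and 10.83 in young cells at its RefSeq start. Of the 254 peaks with a RefSeq start, 238 (93.7%) were called lower in the authors' deposited table and none higher, at the authors' FDR under 0.05, against 61.2% called lower of those without a start. The 2 groups differ in level and width as given above.

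Most H3K4me3 peaks outside promoters were lower in old cells, as most peaks of the table were. In the authors' deposited table, 3244 of 5162 (62.8%) were called lower and 37 (0.717%) higher, against 79.1% lower and 0.281% higher over all 21390 peaks. The median change was -1.21 outside promoters, -1.37 over all peaks, -1.42 for the 13043 autosomal promoter peaks within 1 kb and -0.73 for the 2587 promoter peaks at 1 to 3 kb, each from the authors' deposited table. Set against the table's own median, 38.2% of peaks outside promoters lay below it, against 58.9% of promoter peaks within 1 kb. The sources used here do not give how ChIP-seq libraries were scaled to each other, so where no change lies is not known and changes are set against the table's median.

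By class, introns held the smallest differences and 5′ UTRs the largest. The 2446 distal intergenic peaks had a median level of 6.18 in old and 7.44 in young cells, a median change of -1.28, and 68.9% were called lower in the authors' deposited table. The 2046 intronic peaks had 5.89 in old and 6.82 in young cells, -1.03 and 52.1%. The 296 exonic peaks (-1.41, 73.0%), the 189 in 3′ UTRs (-1.39, 74.1%) and the 152 downstream of a gene end (-1.38, 69.7%) lay close to the table's median. The 33 peaks in 5′ UTRs had 7.45 in old and 8.66 in young cells, a median width of 1764 bp, a median change of -1.54, and 90.9% were called lower in the authors' deposited table. Of the 37 called higher, 22 were distal intergenic, 13 intronic, 1 exonic and 1 in a 3′ UTR.

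**Figure D1:**
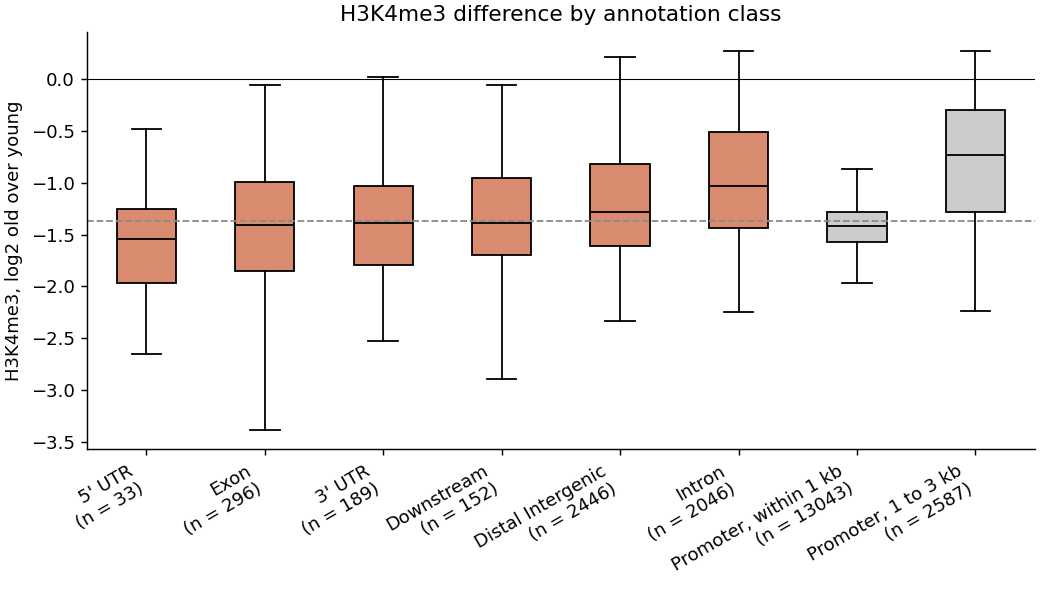
H3K4me3 log2 fold change, old over young, per peak and annotation class, from the authors' group means. Boxes span the quartiles with the median as a line, whiskers reach the 5th and 95th percentiles, the dashed line is the median of all peaks (-1.37), and grey boxes are autosomal promoter peaks. The intron box (median -1.03) sits above that line and the 5′ UTR box (median -1.54) below it.

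Distance from a promoter peak also separated these peaks. The 1194 peaks with under 2 kb between them and the nearest promoter H3K4me3 peak had a median change of -0.78, and 34.9% were called lower in the authors' deposited table. Those 5 to 20 kb away (1146 peaks) had -1.33 and 73.6%, those 20 to 100 kb away (1619) -1.33 and 77.5%, and those 100 kb or more away (779) -1.14 and 61.1%. Within introns the same split gave 28.8% called lower under 2 kb and 64.5% at 2 kb or more, and within distal intergenic peaks 39.7% and 72.7%, in the authors' deposited table. Introns held 709 of the 1194 peaks next to a promoter peak. The 1194 also had a lower median young level, 6.5, than peaks 5 to 20 kb (7.48), 20 to 100 kb (7.63) or 100 kb or more away (7.25). The share called lower grew with level, as given below, and distances were not compared at equal level. At the 3 kb limit that defined the peaks, 1304 promoter peaks at 2 to 3 kb had a median change of -0.74 (35.0% called lower) and 765 non-promoter peaks at 3 to 4 kb had -0.92 (43.1%) in the authors' deposited table.

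At equal level, the share called lower outside promoters was closer to that of promoter peaks than the 62.8% and 94.3% over all levels, and the median change stayed smaller. Between levels 6 and 7, 54.2% of 1527 peaks outside promoters and 59.6% of 654 promoter peaks were called lower in the authors' deposited table, with median changes of -1.14 and -1.25. Between 8 and 9 the shares were 94.4% of 574 and 96.3% of 1012, and the medians -1.33 and -1.54. Between 10 and 11 they were 97.3% of 147 and 99.7% of 4671, with medians of -1.38 and -1.41. The 5162 peaks had a median level of 6.06 in old and 7.17 in young cells, and the 13043 promoter peaks 9.44 in old and 10.85 in young cells.

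**Figure D2:**
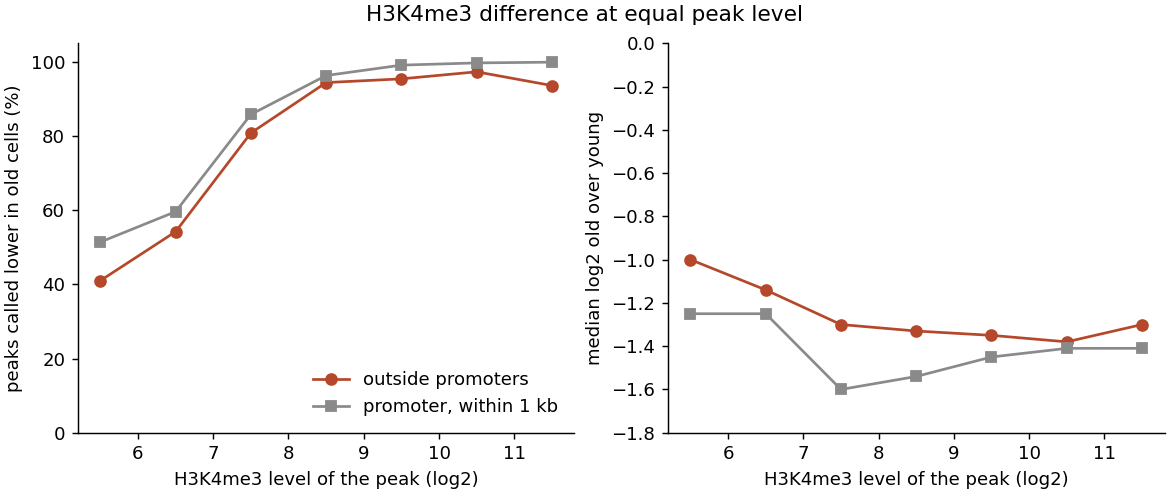
Share of H3K4me3 peaks called lower in old cells (left, %) and median log2 fold change, old over young (right), by peak level in steps of 1 on the log2 scale, for peaks outside promoters (circles) and autosomal promoter peaks within 1 kb (squares). The shares run from 41.0% and 51.4% between levels 5 and 6 to 97.3% and 99.7% between levels 10 and 11.

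The 10 peaks of highest level outside promoters were 2 short peaks and 8 domains of 8033 to 15854 bp. A 158 bp peak and a 751 bp peak, both described below, had the highest levels. Next was a domain in an exon of Tacc2, a centrosomal coiled-coil gene (chr7:130619936-130633692, 13757 bp), with 12.41 in old and 13.67 in young cells. This domain changed by -1.26 in the authors' deposited table (FDR 0.000256). It was followed by a 13385 bp domain annotated to Gm11266 (chr4:82531116-82544500) with 12.34 in old and 13.58 in young cells, which lies upstream of Nfib. The 5′ UTR of Cyp26b1, an enzyme that clears retinoic acid, had 11.69 in old and 13.27 in young cells (chr6:84581165-84590773), a change of -1.57 in the authors' deposited table (FDR 7e-07), and overlapped H3K27me3, Pol2 and listed ATAC-seq peaks. Bcl11b, a zinc finger factor of skin and T cells, had an intragenic domain of 11947 bp with 10.77 in old and 12.04 in young cells. The widest peak, 36611 bp on chromosome 6 (47650420 to 47687030), covered 7 RefSeq starts of predicted genes, 3 Pol2 peaks and 1 H3K27me3 peak, with 11.06 in old and 12.24 in young cells. The 96 peaks wider than 5 kb had a median change of -1.28, and 44 of them (45.8%) overlapped a Pol2 peak, against 11.2% of all 5162.

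RNA polymerase III transcribes tRNA genes, whose flanks commonly carry H3K4me3. Of 391 autosomal RefSeq tRNA genes, 71 lay in peaks outside promoters, 150 in promoter peaks and 170 in no H3K4me3 peak. The 71 fell in 42 peaks, which had a median level of 9.10 in old and 10.46 in young cells and a median width of 3394 bp. Of these 42, 39 (92.9%) were called lower in the authors' deposited table and none higher at the authors' FDR under 0.05, with a median change of -1.33. The share called lower was 62.8% over all 5162 peaks and 94.9% over the 1111 of them with a level of 8 or more, so it was close to that of other peaks of high level. The highest held 5 tRNA genes (chr3:96494519-96505364), with 12.12 in old and 13.45 in young cells. Others held 7 tRNA genes (chr19:12003968-12015366; 11.92 in old and 13.16 in young cells) and 4 (chr13:23440173-23456026; 12.11 in old and 13.15 in young cells). Of the 42, 5 (11.9%) overlapped a Pol2 peak and 7 (16.7%) an H3K27me3 peak, against 11.2% and 8.99% of all 5162. The 68 promoter peaks with a tRNA gene had a median change of -1.35, and 95.6% were called lower in the authors' deposited table.

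RefSeq protein-coding gene bodies held 2610 of the 5162 peaks (50.6%), in 1754 of 20665 genes. One peak was found in 1284 genes, and 55 genes had 5 or more. Nfib, a nuclear factor I protein required in bulge stem cells, had the most, 22 in 217 kb, or 10.2 per 100 kb, against a median of 2.35 per 100 kb over genes with any. Casz1, a zinc finger factor, had 14, Vdr, the vitamin D receptor needed for hair cycling, 12 (22.3 per 100 kb), and Nfatc1, a factor that holds bulge cells quiescent, 11. Smad7, an inhibitor of TGF-beta signalling, had 7 in 28.6 kb (24.5 per 100 kb). Trp63, the master factor of stratified epithelia, and Tcf7l2, a Wnt effector, had 8 each.

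The counts called lower in these gene bodies are set beside the 62.8% of all 5162 peaks. At Nfib 3 of 22 peaks were called lower in the authors' deposited table, the changes ran from -1.40 to -0.03 with a median of -0.60, and the promoter peak of 32219 bp had 14.30 in old and 15.61 in young cells, a change of -1.30 (FDR 0.00181). The strongest peak in the Nfib body (chr4:82324123-82331165) had 10.38 in old and 11.37 in young cells, -1.0 in the authors' deposited table (FDR 0.00305). At Trp63 none of the 8 peaks was called in the authors' deposited table (FDR 0.131 or more), the changes ran from -0.69 to 0.54, and the promoter peak changed by -0.99 (FDR 0.00618). At Vdr 2 of 12 were called lower, at chr15:97883062-97883507 (3.93 in old, 6.49 in young cells; -2.56) and chr15:97883692-97884142 (4.28 in old, 6.39 in young cells; -2.10), both in the authors' deposited table. At Tcf7l2 1 of 8 was called, at Nfatc1 7 of 11, at Casz1 10 of 14 and at Smad7 7 of 7, with medians of -0.77, -1.23, -1.25 and -1.96 in the authors' deposited table. The shares at Nfatc1 and Casz1 lay near that of all 5162 peaks, and those at Nfib, Trp63, Vdr and Tcf7l2 below it. Low shares were also seen outside the follicle stem cell list. There 3 of 8 were called lower at Syne2, 2 of 7 at Kank1 and 0 of 7 at Skap1, against 6 of 7 at both Bach2 and Maml3. Median young levels at Nfib, Trp63, Vdr and Tcf7l2 were 6.54 to 6.86, below the 7.17 of all 5162. Between levels 6 and 7, 54.2% of peaks outside promoters were called lower. Whether these genes differ from one another beyond the spread between libraries was not tested, since the table holds no values per library.

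**Figure D3:**
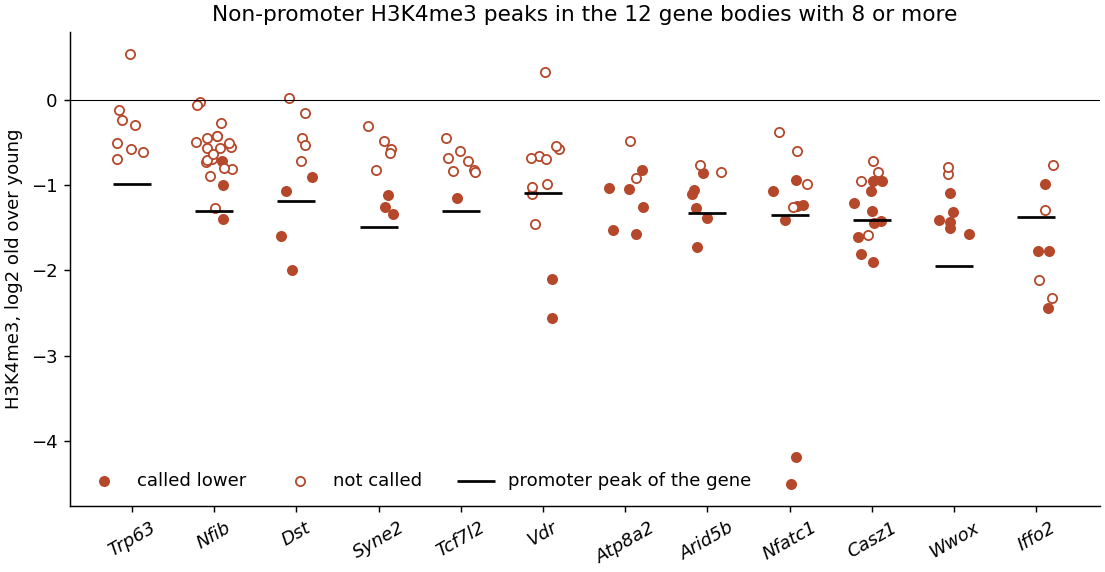
H3K4me3 log2 fold change, old over young, of each non-promoter peak in the 12 RefSeq gene bodies with 8 or more, from the authors' deposited table, ordered by median. Filled points were called lower and open points were not called. The bar is the strongest promoter peak (within 1 kb of a start) that overlaps the gene body, whichever gene it is annotated to. Atp8a2 had no such peak and has no bar. Trp63 has 0 of 8 filled points and Nfib 3 of 22, against 10 of 14 at Casz1.

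All 22 Nfib peaks overlapped Pol2 peaks, but those spanned most of the 217 kb gene, so nearly any peak there would overlap one. In the Nfib body the Pol2 table held 65 peaks spanning 200299 bp, with a median change of -0.82 and none called lower in the authors' deposited table, against a median of -1.72 and 52.9% called lower over all 6789 Pol2 peaks. Pol2 covered 39971 bp of Vdr (median -1.27), 75671 bp of Nfatc1 (-1.05) and 62665 bp of Trp63 (-1.19), in the authors' deposited table. The Pol2 table held no peak in Smad7, Atp8a2 or Wwox. Nfatc1 and Vdr had 9 and 8 of their peaks in Pol2 peaks, Trp63 2 of 8 and Tcf7l2 none of 8. These counts were not set against the share of each gene that Pol2 covered.

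Over the 34 genes of the follicle stem cell list, 24 had a peak outside promoters, 102 in all, of which 36 (35.3%) were called lower and none higher in the authors' deposited table, with a median change of -0.80. The list was made with earlier results of these data known. Its peaks had a median young level of 6.82, below the 7.17 of all 5162. At equal level the list's share was also the smaller: 27.1% of 48 between levels 6 and 7, against 54.2%, and 64.3% of 14 at level 8 or more, against 94.9% of 1111, in the authors' deposited table. Nfib, Vdr, Nfatc1, Trp63 and Tcf7l2 held 62 of the 102. Without these 5 genes 22 of 40 (55.0%) were called lower, and without Nfib alone 33 of 80 (41.2%), both in the authors' deposited table. A Pol2 peak overlapped 50 of the 102, against 11.2% of all 5162. Of these 50, 41 lay at the 5 genes, and without those genes 9 of 40 overlapped a Pol2 peak. Single peaks of the list included Itga6, the α6 integrin used in the sort (chr2:71800477-71802976; 7.52 in old, 8.74 in young cells), and Cd34, the other sort marker, whose exonic peak had 5.76 in old and 5.83 in young cells (FDR 0.92 in the authors' deposited table).

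The other pathway lists stayed closer to the 62.8% of all 5162 peaks, and none of them had a peak called higher in the authors' deposited table. AP-1 and immediate early genes had 24 peaks at 14 of 25 genes, 14 called lower (58.3%, median -1.16). Among them Fos, the AP-1 subunit, had 4 of 5 called lower, the lowest FDR at chr12:85454202-85456947 with 8.0 in old and 9.76 in young cells (-1.76, FDR 1.52e-07, in the authors' deposited table). Nr4a1, an orphan nuclear receptor, had 6.74 in old and 9.19 in young cells (chr15:101245696-101247301; -2.45, FDR 1.82e-08), and Maff, a small Maf protein, 8.08 in old and 9.97 in young cells in its 5′ UTR (-1.88, FDR 2.47e-07), both in the authors' deposited table. Wnt pathway genes had 52 peaks, 26 called lower (50.0%, median -1.13). The peak annotated to Wnt11, a ligand, had 9.56 in old and 11.16 in young cells (chr7:98813480-98817010; -1.60, FDR 1.07e-07, in the authors' deposited table), but it held 2 tRNA genes and a RefSeq start and is one of the 42 tRNA peaks above, as is 1 peak annotated to Wnt10a. Sfrp1, a secreted inhibitor, had 2 of 8 called lower.

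Notch, Hedgehog, FGF and BMP genes had 35 peaks, 26 called lower (74.3%, median -1.38) in the authors' deposited table, 7 of them at Smad7. Dll4, a Notch ligand, had 6.83 in old and 8.83 in young cells (chr2:119337054-119338615; -2.0, FDR 4.24e-07, in the authors' deposited table). Basement membrane and integrin genes had 33 peaks, 19 called lower (57.6%, median -1.13). Dst, a cytolinker of hemidesmosomes, held 9 of them with 4 called lower, and a peak inside the neighbouring collagen IV genes Col4a1 and Col4a2 had 3.74 in old and 6.71 in young cells (chr8:11343269-11343772; -2.98, FDR 4.17e-06, in the authors' deposited table). YAP-TEAD and mechanosensing genes had 15 peaks, 9 called lower (60.0%, median -1.14), including 3 of 3 at Tead3, a DNA partner of YAP, where an exonic peak had 5.47 in old and 8.11 in young cells (chr17:28339757-28341000; -2.64, FDR 4.31e-08, in the authors' deposited table). H3K4 and H3K27 modifiers had 8 peaks, 7 called lower (median -1.17), with Setd1b, an H3K4 methyltransferase, at 5.83 in old and 8.16 in young cells (chr5:123149379-123150981; -2.33). Imprinted genes had 7, of which 6 were called lower (median -1.20), and Cdkn1c, a maternally expressed cell cycle inhibitor, had 5.76 in old and 7.47 in young cells, all in the authors' deposited table. Immune and fibroblast markers had no peak outside promoters, and melanocyte, vascular and interfollicular markers had 4 each.

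The lowest FDRs among lower peaks included several where the old level was at the lowest value of the table (-0.13), so that no fold is given for them. These were at Pfkl (chr10:78018836-78020467; 8.41 in young cells), Snord83b (chr15:80061704-80063180; 8.0 in young cells), F12 (7.24 in young cells) and Fam160b2 (7.39 in young cells). With a measured level at both ages, Olfm2, an extracellular olfactomedin (chr9:20745363-20746737), had 4.52 in old and 7.96 in young cells, a change of -3.44 in the authors' deposited table (FDR 2.36e-11). Rims1, a presynaptic scaffold (chr1:22532581-22535519, exon), had 6.90 in old and 9.30 in young cells, -2.40 in the authors' deposited table (FDR 1.04e-08). Tspan4, a tetraspanin (chr7:141480324-141483669, 5′ UTR), had 7.45 in old and 9.48 in young cells, -2.03 in the authors' deposited table (FDR 1.37e-08). An intronic peak of Camkk2, a calmodulin-dependent kinase kinase (chr5:122770466-122771103), had 1.17 in old and 7.02 in young cells, -5.86 in the authors' deposited table (FDR 1.5e-09). In all, 221 peaks outside promoters had a level at the lowest value in old or young cells.

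The 37 peaks called higher were short and lay farther from promoter peaks than most. They made up 37 of the 60 called higher in the whole table, with 10 at autosomal promoters and 13 on other chromosomes, and 36 of the 37 were under 1 kb wide (median 420 bp, against 803 bp for all 5162). Their median distance to the nearest promoter peak was 105515 bp, against 16694 bp for all. Of the 37, 23 (62.2%) overlapped a Pol2 peak and 19 (51.4%) an H3K27me3 peak, 14 of them both, against 11.2% and 8.99% of all 5162. None held a RefSeq start or a tRNA gene.

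The lowest FDR was at an intronic peak of Mdga2, a synaptic adhesion protein (chr12:67059199-67059683), with 9.27 in old and 7.0 in young cells, a change of 2.27 in the authors' deposited table (FDR 3.87e-08). A distal intergenic peak annotated to Gm25727 (chr3:56575486-56575742) had 7.39 in old and 5.44 in young cells, 1.96 in the authors' deposited table (FDR 1.8e-05), and one annotated to Kcnh5 (chr12:74804228-74804476) had 7.78 in old and 6.08 in young cells (1.71, FDR 3.7e-05). The highest level of all peaks outside promoters was a 158 bp peak in an intron of Chl1 (chr6:103649113-103649270), with 14.68 in old and 13.59 in young cells. Its change was 1.09 in the authors' deposited table (FDR 0.000443). A 162 bp Pol2 peak at the same place was also very high, 14.40 in old and 14.34 in young cells (FDR 0.955 in the authors' deposited table). Whether this signal belongs to Chl1 was not tested. A peak annotated to Cdkn1a, the p21 cell cycle inhibitor (chr17:29102832-29103163), had 6.12 in old and 4.76 in young cells, 1.36 in the authors' deposited table (FDR 0.0187). It lay 4625 bp from the start the authors' annotation used and 5929 bp from the nearest promoter H3K4me3 peak. The Cdkn1a promoter peak had 10.38 in old and 12.09 in young cells (-1.71, FDR 2.12e-08, in the authors' deposited table). The other 3 peaks within 6 kb of the called peak had changes of 0.54 to 0.64 that were not called in the authors' deposited table. They and the called peak all lay in 1 H3K27me3 peak of 7858 bp.

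Several of the 37 fell in clusters of near-identical gene copies, where reads can be split between copies, so their values are uncertain. On chromosome 4, a cluster of zinc finger genes that includes Zfp978, Zfp992 and Zfp993 held 6 of the 9 peaks there as called higher and 1 as called lower in the authors' deposited table. In a cluster of predicted genes on chromosome 8 that includes Gm15319, Gm20778 and Gm21092, 3 of 12 were called higher, and near Gm5466 on chromosome 2, 3 of 4. For 9 of the 37 the young level was at the lowest value of the table (-0.07), and the other 28 had changes of 0.66 to 3.82 in the authors' deposited table. A 751 bp peak at the end of chromosome 19, annotated to Gm21060 (chr19:61266404-61267154), was the second highest of all, with 12.52 in old and 14.03 in young cells.

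Pol2 at the same places was compared next. Peaks outside promoters overlapped 571 Pol2 peaks, of which 269 (47.1%) were called lower and 2 higher in the authors' deposited table, with a median change of -1.54. Over the whole Pol2 table, 52.9% were called lower and 0.0442% higher. The Pol2 peaks overlapping H3K4me3 peaks called lower had a median change of -1.85, and 255 of 375 were called lower in the authors' deposited table. All 23 Pol2 peaks overlapping H3K4me3 peaks called higher had a higher level in old cells, with a median change of 0.46. At Itih5 and Gm18183 the young Pol2 level was at the lowest value of that table (-0.16), so no fold is given for them, and the others had changes of 0.01 to 3.97. Those at Itih5 and Gm13161 were called higher in the authors' deposited table (FDR 0.0282 and 0.000167). Itih5 had its young level at the lowest value for H3K4me3 too, and Gm13161 lies in the chromosome 4 cluster of gene copies, where values are uncertain. At Gm13161 (chr4:147438437-147439283), Pol2 had 6.26 in old and 2.29 in young cells. At Mdga2 Pol2 had 9.10 in old and 8.80 in young cells (FDR 0.747 in the authors' deposited table). The 23 Pol2 peaks were short, with a median width of 365 bp against 851 bp for the 571. At Mdga2 the Pol2 peak (67059208 to 67059681) had nearly the same borders as the H3K4me3 peak (67059199 to 67059683). Whether such short signals shared between assays are reliable was not tested.

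**Figure D4:**
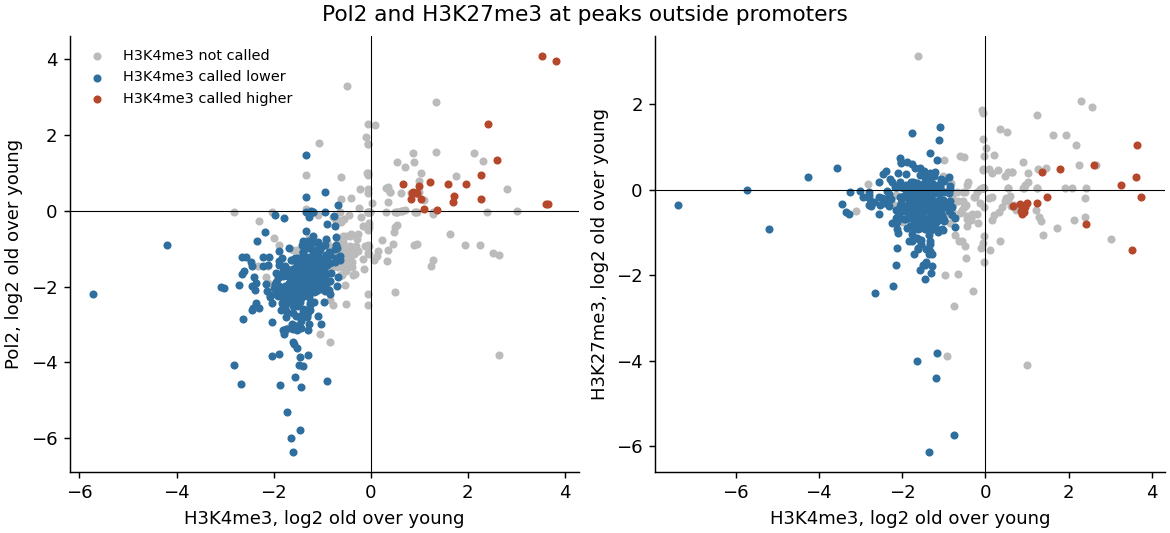
Log2 fold change, old over young, of Pol2 peaks (left) and H3K27me3 peaks (right) against that of the non-promoter H3K4me3 peak they overlap, 1 point per overlapping pair, from the authors' deposited tables. All 23 Pol2 points of H3K4me3 peaks called higher lie above 0, and 6 of 19 H3K27me3 points do.

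H3K27me3, the Polycomb mark, overlapped 464 of the 5162 peaks (8.99%), most often in 3′ UTRs (23.3%) and least in introns (4.50%). The 463 H3K27me3 peaks concerned had a median level of 7.82 in old and 7.99 in young cells and a median change of -0.31. Of these 85 (18.4%) were called lower and 2 higher in the authors' deposited table, against 2.6% lower and 2.66% higher over all 67985 H3K27me3 peaks. The H3K27me3 peaks at promoter H3K4me3 peaks had a like share, 453 of 2055 (22.0%) called lower in the authors' deposited table. Their median width, 5357 bp, and that of the peaks here, 3149 bp, exceeded the 1192 bp of all H3K27me3 peaks. The 2 called higher were chosen for mention after their values were seen. One overlapped an H3K4me3 peak near Tfap2c, an AP-2 factor of epidermis (chr2:172613687-172615260), with H3K27me3 at 7.82 in old and 6.49 in young cells (1.33, FDR 0.000338) beside an H3K4me3 change of -1.75 (FDR 0.000115), both in the authors' deposited table. The other lay near Prdm1, a transcriptional repressor, with H3K27me3 at 6.16 in old and 3.02 in young cells (3.13, FDR 0.00995) and an H3K4me3 change of -1.61 that was not called (FDR 0.0835) in the authors' deposited table. At H3K4me3 peaks called higher, H3K27me3 changes were negative in 13 of 19 and none was called in the authors' deposited table.

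The combination of marks split the peaks further. With neither mark there were 4188 peaks, 61.8% called lower and 9 higher in the authors' deposited table. With Pol2 only there were 510 (69.2% lower, 9 higher), and with H3K27me3 only 394 (75.1% lower, 5 higher). With both there were 70, of which 6 (8.57%) were called lower and 14 higher in the authors' deposited table, with a median change of 0.54 and a median level of 2.45 in old and 1.46 in young cells. Of these 70, 61 were under 1 kb wide and 28 had an H3K4me3 level at the table's lowest value. Cyp26b1, described above, was one of the few wide peaks with both. Another (chr6:51168402-51178438, 10037 bp) had 11.06 in old and 12.43 in young cells (-1.37, FDR 7.35e-06, in the authors' deposited table). It is annotated to Mir148a, a microRNA gene whose start lies 91472 bp away.

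ATAC-seq measures open chromatin by transposase insertion. The deposited table lists 7849 peaks already selected on their difference between these ages, so a call in it is not independent of that selection. The same holds for tests of summed counts below, whose p-values therefore give no separate evidence of a difference. Of these, 215 (2.74%) overlapped 216 of the 5162 peaks (4.18%). Counts summed over the 215 were 79281, 73114, 73303 and 65505 in the old libraries, and 100004, 108988, 98819 and 103493 in the young libraries. All old libraries lay below all young ones, with a ratio of means of 0.708 (72801 ± 5644 old, 102826 ± 4562 young; SD, n = 4 each; two-sided exact permutation p = 0.0286, the smallest that 70 splits allow). The sum over all 7849 peaks had a ratio of 0.698 (exact permutation p = 0.0286). As a share of listed counts, the 215 took 4.07, 3.94, 4.13 and 4.16% in the old libraries, and 4.07, 4.31, 3.97 and 3.73% in the young libraries. The shares overlapped, with means of 4.08 ± 0.0972% old and 4.02 ± 0.24% young (SD, n = 4 each; two-sided exact permutation p = 0.657).

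With the counts as deposited and 1 common library size, edgeR's quasi-likelihood test called 115 of 215 (53.5%) lower and 10 (4.65%) higher at a Benjamini-Hochberg FDR under 0.05, against 46.4% and 5.43% of all 7849. Old and young libraries did not overlap, with old lower, at 92 of the 215, against 35.8% of all listed peaks, and with old higher at 10, against 4.88%. Without old library 3 the counts were 52 lower and 2 higher, and 5 other single libraries also brought the lower count to between 63 and 73. This split depends on scaling. Under TMM, which moved the median change of all listed peaks to -0.05 instead of -0.64, 1 of 215 was called lower and 30 (14.0%) higher, against 0.701% and 13.9% of all listed peaks. The directions given below are therefore those of the counts as deposited.

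Dlc1 had the best covered of the peaks named by lowest p. Its intronic ATAC-seq peak (chr8:36639401-36641350) had counts of 2386, 2196, 2165 and 2630 in the old libraries, and 3439, 3551, 3454 and 3508 in the young ones. All old counts lay below all young counts (log2 fold change -0.57 ± 0.12 SE, edgeR FDR 0.00695), and H3K4me3 there had 7.30 in old and 8.92 in young cells. At Kif21a, a kinesin (chr15:91087551-91089000), counts were 956, 853, 934 and 826 in the old libraries, and 1403, 1600, 1481 and 1488 in the young ones (-0.74 ± 0.14, edgeR FDR 0.00498). The groups did not overlap there either. At Prdm1 (chr10:44446751-44448100), counts were 693, 777, 764 and 602 in the old libraries, and 1067, 1150, 1008 and 1538 in the young ones (-0.75 ± 0.17, edgeR FDR 0.0108), beside an exonic H3K4me3 peak with 5.30 in old and 7.36 in young cells. Rims1, named above for H3K4me3, had 200, 83, 108 and 156 in the old libraries, and 254, 300, 347 and 405 in the young ones (chr1:22533251-22533800; -1.25 ± 0.29, edgeR FDR 0.0111).

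**Figure D5:**
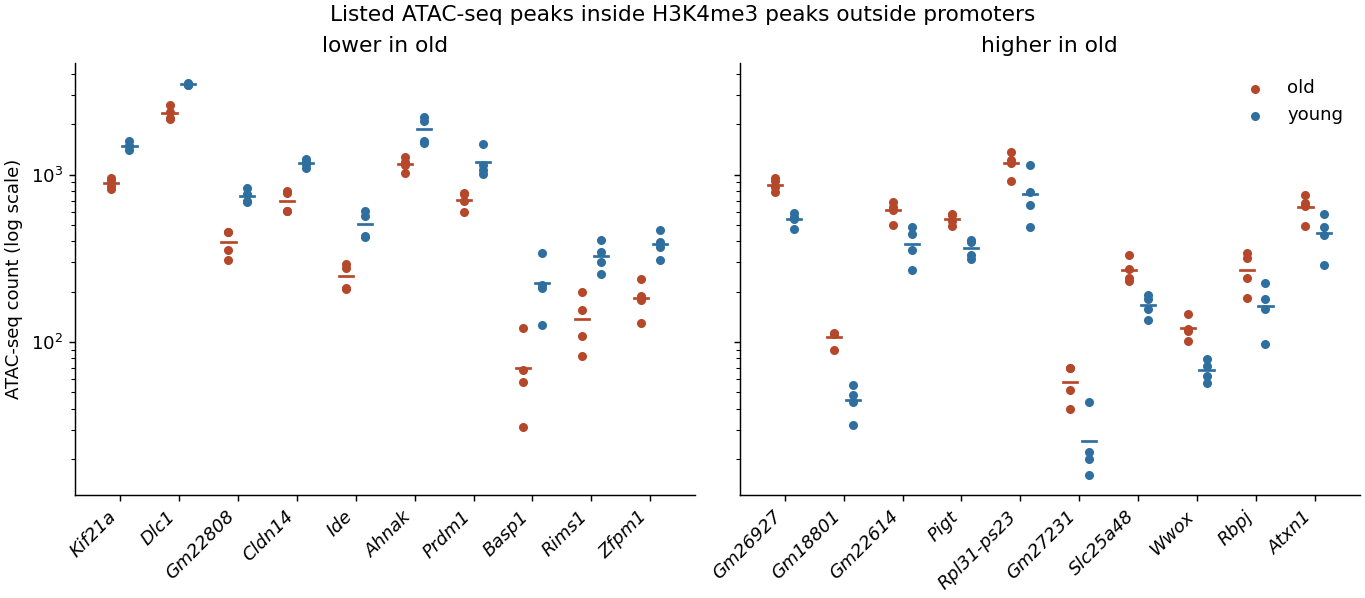
ATAC-seq counts per library (log axis) for the 10 lowest-p listed peaks in each direction that overlap H3K4me3 peaks outside promoters, labelled by the gene annotated to that H3K4me3 peak. Points are libraries, 4 old (left of each pair) and 4 young, bars are means, and counts are as deposited. At Dlc1 the old libraries have 2165 to 2630 counts and the young 3439 to 3551.

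Among the 10 called higher, a peak near Tmem161b (chr13:84347851-84348700) had 916, 784, 958 and 840 counts in the old libraries, and 590, 474, 546 and 556 in the young ones (0.69 ± 0.16, edgeR FDR 0.0119), while its H3K4me3 level was 8.83 in old and 9.57 in young cells. Old counts lay above all young counts. Within the Wwox body (chr8:114773701-114774000), counts were 120, 101, 148 and 116 in the old libraries, and 72, 63, 79 and 57 in the young ones (0.84 ± 0.32, edgeR FDR 0.0421), beside an H3K4me3 change of -1.58 in the authors' deposited table (FDR 0.000782). At Rbpj, the nuclear effector of Notch, counts were 339, 242, 319 and 183 in the old libraries, and 224, 98, 180 and 157 in the young ones, which overlap (chr5:53566451-53566950; 0.72 ± 0.29, edgeR FDR 0.0468). Of the 215 ATAC-seq peaks, 159 overlapped an H3K4me3 peak called lower, and 93 of those were also called lower in ATAC-seq and 4 higher. Over all 215 the counts were 115 (53.5%) lower and 10 (4.65%) higher, and under TMM 1 of 215 was called lower. The overlap is therefore not read as agreement between the assays.

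RNA was compared through the genes that hold a peak outside promoters in their body or are annotated to one. The deposited RNA table lists 597 genes with an adjusted p up to 0.1, and 99 of them (16.6%) had such a peak. Of these 99, 29 (29.3%) were higher and 30 (30.3%) lower in old cells at an adjusted p under 0.05 in the authors' deposited table, against 38.0% and 18.8% of the 597. Gene length was not taken into account, and longer genes can hold more peaks. The peaks of the 29 had a median H3K4me3 change of -1.15 and those of the 30 of -1.32, and of all 147 peaks at the 99 genes 96 (65.3%) were called lower and 1 higher in the authors' deposited table, a share near the 62.8% of all 5162 peaks.

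The lowest adjusted p was at Ebf1, an early B cell factor also found in dermal and epithelial cells, with an RNA change of -1.02 ± 0.18 (SE; adjusted p = 1.154e-05, from DESeq2 in the authors' deposited table) and 1 H3K4me3 peak at -1.30. Epha4, an ephrin receptor, had an RNA change of 0.63 ± 0.11 (adjusted p = 2.464e-05, DESeq2) and a peak at -1.53, and Nptx1, a neuronal pentraxin, 1.07 ± 0.19 (adjusted p = 2.464e-05, DESeq2) and -1.95, all in the authors' deposited table. Hpgd, which degrades prostaglandins, had an RNA change of 0.80 ± 0.16 in the authors' deposited table (adjusted p = 0.0001883, DESeq2) beside a peak at -1.15. Rorb, a nuclear receptor, had an RNA change of -1.14 ± 0.22 in the authors' deposited table (adjusted p = 0.0001784, DESeq2) beside a peak at -1.60. Ptch1, the Hedgehog receptor, had 3 peaks (-1.19 to -0.66) and higher RNA, 0.56 ± 0.14 in the authors' deposited table (adjusted p = 0.005899, DESeq2). Not every listed gene had a peak called lower. Rps25, a ribosomal protein, had an RNA change of 0.67 ± 0.13 (adjusted p = 0.0001603, DESeq2) and a peak at -0.73 that was not called, and Pnp, a purine salvage enzyme, 0.62 ± 0.13 (adjusted p = 0.0006034, DESeq2) and a peak at 0.24 that was not called, both in the authors' deposited table. The peak of Ly6e, at -0.93, was not called either. The 1 peak called higher was that of Chl1, a neural adhesion protein, at 1.09, beside an RNA change of 0.40 ± 0.12 in the authors' deposited table (adjusted p = 0.03044, DESeq2). It is the 158 bp intronic peak described above, where Pol2 was also very high at both ages and was not called.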

How the data were processed

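H3K4me3, H3K27me3 and Pol2 ChIP-seq (ChIPmentation), ATAC-seq and RNA-seq were made from sorted cells, per the labels' protocols. Per the submitters' processing notes, the tools for ChIP-seq were BWA 0.7.15, MACS2 2.2.7.1 and DiffBind 2.14.0 on GRCm38; ATAC-seq used BWA 0.7.12 on GRCm38; RNA-seq used STAR 2.5.2b, featureCounts and DESeq2 1.22.2 on GRCm38.p5. The sources used here do not give the scaling of the ChIP-seq libraries.

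Per the file headers, the authors' ChIP-seq tables give a log2 level per age, a log2 difference (young minus old, turned round here), a p-value and an FDR. The deposited ATAC-seq table gives whole-number counts per library, a −log10 p and a log2 ratio. The deposited RNA table gives a mean normalized signal over libraries, a log2 fold change, p-values and adjusted p-values. Every listed ATAC-seq peak entered edgeR 4.0.16, since none failed its filter on low counts; DESeq2 1.42.0 was an alternative. The fit was tested on simulated data.

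The peaks and gene lists were chosen with earlier results of these data known. Overlap meant 1 shared base. Named peaks were, by class, the lowest FDRs in each direction, the 10 highest and 10 widest, the 10 highest with H3K27me3 or Pol2, the 10 lowest ATAC-seq p in each direction, the lowest FDR per list gene, and the 10 lowest RNA adjusted p; the text gives a selection of these, and genes with several peaks, RefSeq starts, tRNA genes, the clusters of gene copies, Cdkn1a, Tet1, Ptch1, the RNA of Chl1 and the peaks in other gene bodies were chosen after their values were seen. Gene IDs matched names for 3519 of 3555 genes. Of 12442 genes shared with RefSeq GRCm38.p6, 91.0% had start coordinates within 5 kb. Precision is set by 2 to 4 libraries per group; intervals for ChIP-seq could not be made. The series' design text calls the samples biological replicates. ATAC-seq libraries of 1 age differed by at least 10.8 in chi-square per degree of freedom, so none was counted as a repeat.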

Additional observations from a re-analysis of the deposited data

Results flagged for a closer look

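In 44 groups of 4 libraries checked (sums, shares and named ATAC-seq peaks), 1 held a library far from the others, and chance alone gives about 1 in 20. The ATAC-seq peak near Zcchc2, in the H3K4me3 peak annotated to Gm18801 (chr1:105971801-105972050), had 112, 90, 114 and 111 counts in old libraries, where the gap of the lowest to its neighbour was 0.875 of the group's range, and 44, 48, 32 and 55 in young libraries.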

How the results depend on the processing

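For the 215 ATAC-seq peaks, TMM and total listed counts as library sizes each gave 1 called lower and 30 higher, in place of 115 and 10, and DESeq2 with size factors of 1 gave 19 higher; the cause was not tested. Leaving out 1 library gave 52 to 106 lower (71 without old library 2, 52 without old library 3, 64 without old library 4, 63 without young library 2, 63 without young library 3, 73 without young library 4) and 2 to 9 higher (5 without old library 1, 2 without old library 3, 6 without young library 1, 5 without young library 3), with fewer samples in each fit. The replicate block gave 27 lower and 1 higher; same-numbered libraries correlated at -0.03, -0.11, 0.04 and -0.19 (deviations from the age mean), 1 of 8 correlated best with its own number, and so the numbers were not taken as pairs. The difference in share of listed counts (0.054 percentage points, 0.054 in the replicate block, p = 0.625 by exact sign flips) turned to -0.018 with 50% of the ATAC-seq peak inside and ran from -0.042 (without young library 4) to 0.151 leaving out 1 library. For H3K4me3, 1920 lower peaks lay 10 kb or more from the annotated start, where fewer peaks were counted, and 18 higher peaks passed FDR under 0.01. The median of -1.21 was -1.26 at 10 kb or more, -1.31 above the median level and -1.29 at 5 kb or more from promoter peaks. Overlaps of 8.99% (H3K27me3), 11.2% (Pol2) and 4.18% (ATAC-seq) became 6.97, 7.83 and 1.86% with 50% of the peak covered, and 10.4, 14.0 and 4.99% at 10 kb or more. With 50% covered, 142 Pol2 peaks were called lower and 1 higher, and 1 H3K27me3 peak higher; at FDR under 0.01, 119 Pol2 peaks lower and 1 higher. The share called lower in the follicle stem cell list (35.3%) was 55.0% without its 5 genes with most peaks, an alternative chosen after seeing the data. The other 29 alternatives run kept their direction and their side of the threshold, or stayed within 1.5 times for counts. The depth of the ChIP-seq libraries is unknown here, and 2 libraries per age limit the H3K4me3 and Pol2 calls.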
